A study of Homo sapiens with 16 samples.

Results

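The genes described here are 45 genes of DNA replication and replication fork repair, out of the 57820 genes of the count table. They were chosen by name from their known roles, with earlier results of these data known, and all 45 had enough reads to be tested in each fit. By role they were 11 genes of origin licensing, 6 of helicase activation, 12 of DNA synthesis, 3 of nucleotide supply, 6 of the fork checkpoint and 7 of fork repair. RNA was measured in 16 libraries of Jurkat and HSB-2, established human lines of T-ALL, an acute leukemia of T-lineage lymphoblasts, both labelled TAL1+. Each line gave 2 libraries of each of 4 groups. Wild-type cells were not transduced. Scrambled cells carried a control sequence with no intended target, which the labels call an siRNA and the study's methods an shRNA. The remaining groups carried a lentiviral short hairpin RNA against USP7, a deubiquitinase, either shRNA-4057, which targets exon 21, or shRNA-4058, which targets exon 8. The cells served as a model of partial loss of USP7. Transduced cells had been selected by a fluorescent marker or by puromycin, whereas wild-type cells had not, so transduction, selection and the scrambled sequence cannot be told apart in a comparison of scrambled with wild-type. Levels are given as CPM, counts per 1e6 counted reads after TMM scaling for library composition.

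DNA is copied once per cell cycle. In G1 the origin recognition complex (ORC), CDC6 and CDT1 load the ring-shaped MCM2-7 helicase onto origins, which is called licensing. In S phase CDC45 and the GINS complex turn that ring into an active helicase, and polymerases, the sliding clamp PCNA and its loader RFC copy the DNA, using nucleotides made by ribonucleotide reductase and thymidylate synthase. Slowed forks are guarded by the ATR and CHEK1 kinases with CLSPN, TIMELESS and TIPIN, and are protected and restarted by the BRCA and Fanconi anemia proteins. Many of these genes are transcribed from late G1 under the control of E2F transcription factors, so their RNA is usually highest in dividing cells. USP7 is known to remove ubiquitin from several proteins, and no protein or cell cycle phase was measured here.

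What the genes shared at their start sites was read from RefSeq promoter windows on GRCh38.p14, 250 bases before to 50 after each start, which the table held for 40 of the 45 genes. At least 1 E2F-type string, TTTCCCGC, TTTGGCGC, TTTCGCGC or TTTGCCGC on either strand with overlapping matches counted, stood in the windows of 20 of the 40 genes (50%), against 1090 of 27305 genes in all (3.99%). CCAAT stood in 25 of the 40 (62.5%, against 39.7% of all genes) and TTTGAA in 1 (2.5%, against 18.2%). The genes in all were not matched to these 40 for base composition. A match says only that these letters were there. The 160 bases before the start are printed for 6 genes whose levels the results turn on, with E2F-type matches in capitals: CDT1 (chr16:88803629-88803788, plus strand), TYMS (chr18:657493-657652, plus strand), MCM6 (chr2:135876444-135876603, minus strand) and GINS2 (chr16:85688955-85689114, minus strand) held matches, and ATR (chr3:142578734-142578893, minus strand) and BRCA2 (chr13:32315348-32315507, plus strand) held none of these strings.
CDT1: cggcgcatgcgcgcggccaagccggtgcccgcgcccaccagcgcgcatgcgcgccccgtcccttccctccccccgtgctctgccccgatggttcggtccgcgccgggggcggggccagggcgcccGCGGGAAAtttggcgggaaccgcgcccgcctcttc
TYMS: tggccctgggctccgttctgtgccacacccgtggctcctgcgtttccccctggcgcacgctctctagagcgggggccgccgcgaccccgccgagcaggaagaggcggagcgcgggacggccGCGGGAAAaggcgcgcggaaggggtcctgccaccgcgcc
MCM6: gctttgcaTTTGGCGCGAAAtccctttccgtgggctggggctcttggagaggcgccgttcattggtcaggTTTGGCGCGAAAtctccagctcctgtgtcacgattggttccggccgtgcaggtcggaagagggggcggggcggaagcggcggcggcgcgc
GINS2: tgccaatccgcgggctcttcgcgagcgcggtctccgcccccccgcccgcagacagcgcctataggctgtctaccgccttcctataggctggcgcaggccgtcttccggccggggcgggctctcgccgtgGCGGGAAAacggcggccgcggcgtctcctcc
ATR: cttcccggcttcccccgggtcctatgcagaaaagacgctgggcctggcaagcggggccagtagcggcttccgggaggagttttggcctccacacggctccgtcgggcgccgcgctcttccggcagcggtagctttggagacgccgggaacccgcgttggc
BRCA2: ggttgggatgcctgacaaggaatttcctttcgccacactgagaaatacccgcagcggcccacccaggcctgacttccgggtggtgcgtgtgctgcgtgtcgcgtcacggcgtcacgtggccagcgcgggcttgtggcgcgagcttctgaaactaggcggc
The stretch of CDT1 held 1 match, as did those of TYMS and GINS2, and that of MCM6 held 4 in 2 overlapping pairs. Of the 27 matches in all windows, 21 began between 100 bases before and 20 bases after the start.

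**Figure D1:**
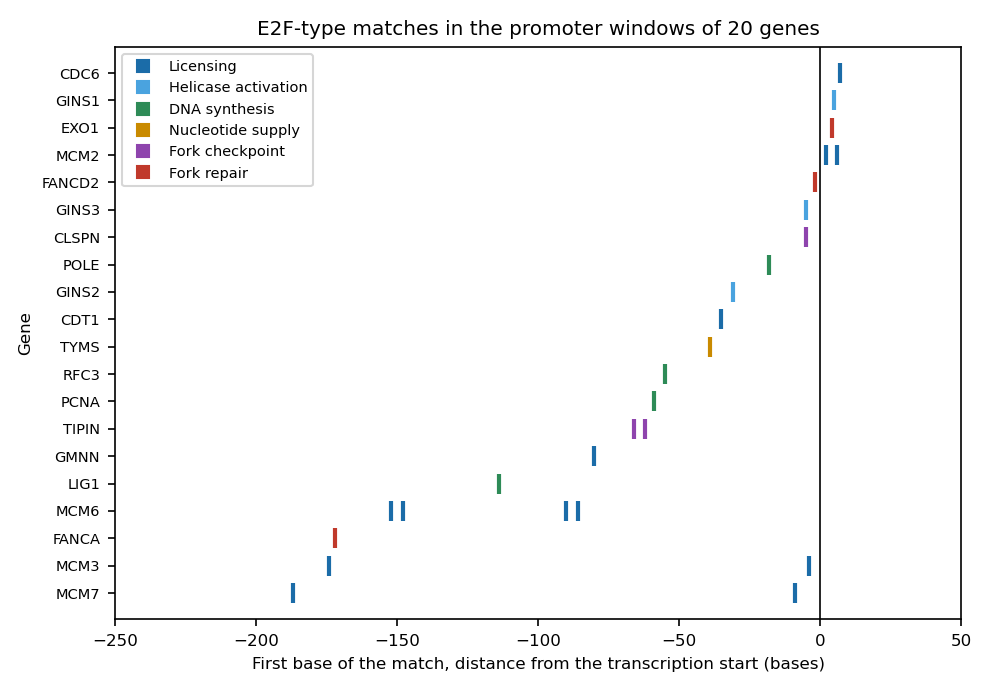
Position of each E2F-type match in the promoter windows of the 20 genes that held one. The horizontal axis is the distance in bases of the first base of the match from the transcription start (vertical line), each row is a gene, each tick is a match, and colour gives the role; 21 of the 27 ticks lie between 100 bases before and 20 bases after the start.

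Libraries held 76.6 to 235.5 M counts (M, 1e6), and the lowest count of any of the 45 genes in any library was 849 (TIPIN), so counting error was small. No source used here says that the libraries of a group came from separate cultures, so p-values measure the spread between these libraries, which may be technical. The 7 T-lineage markers tested were at 10 CPM or more in both lines, and 4 myeloid and 3 erythroid markers were below 1 CPM. On average over a line, CD79A was at 35.5 CPM in Jurkat, PAX5 at 2.06 CPM in HSB-2 and COL1A1 at 8.46 and 6.24 CPM in Jurkat and HSB-2, while the other B-lineage, epithelial and fibroblast markers were below 1 CPM. The exons of 26 of the 45 genes overlap those of at least 1 other gene, and the strand setting of the counting is not given in the sources used here, so their values are uncertain to that extent. For 13 of them (ATR, BLM, CHEK1, FANCA, GINS3, GINS4, MCM2, MCM7, POLD1, PRIM1, RFC5, TIPIN and TYMS) a single overlap covers 5% or more of the exon length, and for a further 4 (FANCI, FEN1, GINS2 and RFC4) the overlapping gene had at least as many counts as the member. USP7 itself was at 396 and 386 CPM in wild-type cells, 384 and 387 with scrambled, 139.9 and 145 with shRNA-4057 and 244 and 241 with shRNA-4058 in Jurkat. In HSB-2 USP7 was at 237 and 243 CPM in wild-type cells, 227 and 220.1 with scrambled, 144 and 149 with shRNA-4057 and 162 and 156 with shRNA-4058. It was thus lower in each library with a hairpin than in any control library of the same line. The log2 fold change with the hairpins pooled against scrambled was -0.97 ± 0.24 (SE) in Jurkat (adjusted p = 0.0201, edgeR quasi-likelihood test) and -0.55 ± 0.056 in HSB-2 (adjusted p = 0.00011).

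In Jurkat, most of the 45 genes fell with shRNA-4057, and fewer with shRNA-4058. With shRNA-4057, 36 of the 45 fell and 5 rose against scrambled, where 27.3% of all genes fell and 22.7% rose. With shRNA-4058, 21 fell and 10 rose, where 26.7% of all genes fell and 19.7% rose. The median log2 fold change was -0.39 with shRNA-4057 and -0.057 with shRNA-4058, and that of all genes was 0 and -0.013. Against wild-type cells the hairpins parted: with shRNA-4057, 25 genes fell and 3 rose (21.2% and 15.4% of all genes), whereas with shRNA-4058, 7 fell and 24 rose (21.9% and 13.9%), or 2 and 27 after correcting each library for GC content and length (the GC and length offset), and 4 and 21 without the first shRNA-4058 library. Comparisons against the same control of a line share its 2 libraries. In bulk RNA, fewer cells in S phase and less RNA per cell cannot be told apart, and this holds for each result below.

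In HSB-2, genes moved in both directions. With shRNA-4057, 17 fell and 12 rose against scrambled (21.7% and 21.9% of all genes), which became 10 and 16 with DESeq2 size factors. Without the first or the second shRNA-4057 library, 9 and 11 fell. With shRNA-4058, 26 fell and 7 rose (26.2% and 26.6%), or 20 and 11 with DESeq2 size factors and 15 and 10 without the second shRNA-4058 library. Against wild-type cells, 18 fell and 10 rose with shRNA-4057 (15.7% and 16%; 10 and 10 without the first wild-type library), and 28 fell and 9 rose with shRNA-4058 (21.1% and 23%), the latter 30 and 5 with the GC and length offset.

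Treating the 4 hairpin libraries of a line as 1 group, so that disagreement between the hairpins counted as error, left 14 genes lower and 2 higher against scrambled in Jurkat (15.7% and 12.4% of all genes), and 10 lower and 6 higher in HSB-2 (17.8% and 20.3%), where the offset gave 18 and 3. These counts rested on the scrambled libraries: without the first or the second of them, 5 and 3 genes were called in Jurkat and 5 and 6 in HSB-2. Each of those fits had 1 scrambled library left, so the part of the library left out and a loss of precision cannot be told apart. With wild-type in place of scrambled, CDT1 (lower) and RRM2 (higher) were the 2 genes called in Jurkat. The 4 hairpin libraries entered these fits as independent, although they are 2 libraries of each of 2 hairpins. Pooled p-values may thus be too small.

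Genes called in the same direction with both hairpins against both controls were 5 lower (CDT1, CDC45, POLD1, TYMS and TIMELESS, against 9.73% of all genes) and 2 higher (FANCA and BLM, against 4.61%) in Jurkat, although POLD1 with shRNA-4058 against wild-type turned to 0.013 with the offset. In HSB-2, 14 were lower (ORC6, CDC6, GMNN, MCM6, MCM7, CDC45, GINS2, RFC3, RFC4, POLE, CHEK1, ATR, BRCA2 and FANCA, against 7.83%). A further 5 were higher in HSB-2 (ORC1, CDT1, RFC2, RRM2 and FANCI, against 9.20%), of which ORC1 and RFC2 turned to -0.066 and -0.058 with shRNA-4058 against scrambled under the offset. The lower and higher counts in Jurkat and the higher count in HSB-2 were thus near the shares of all genes. CDC45 was the one gene lower in both lines under this rule, and CDT1 was in the lower list of Jurkat and the higher list of HSB-2, as FANCA was in the reverse order. With any 1 library left out, 3 of the 5 lower in Jurkat (CDT1, TIMELESS and TYMS), 5 of the 14 lower in HSB-2 (ATR, CDC45, CDC6, MCM6 and POLE) and 3 of the 5 higher in HSB-2 (CDT1, ORC1 and RRM2) were called in all 4 comparisons, while FANCA and BLM in Jurkat were not.

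**Figure D2:**
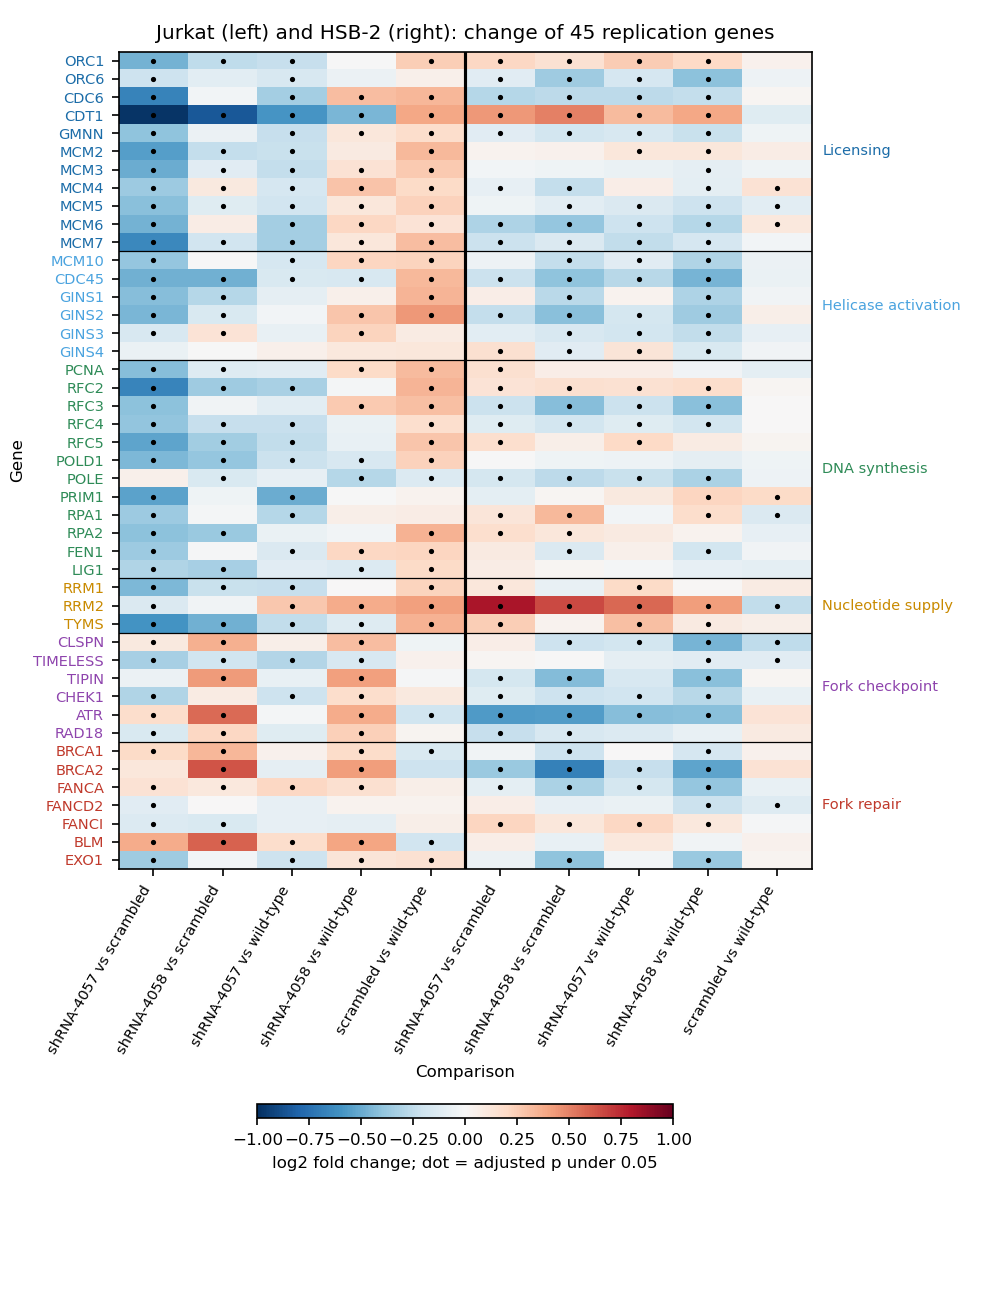
Log2 fold change (colour, from -1 in blue to 1 in red) of the 45 genes (rows, coloured and grouped by role) in 5 comparisons for each line (columns, Jurkat left of the thick line and HSB-2 right of it). Dots mark an adjusted p under 0.05 by edgeR's quasi-likelihood test; with shRNA-4057 in Jurkat 36 of 45 genes were lower than with scrambled, and RRM2 and CDT1 were the genes with the strongest red in HSB-2. With the GC and length offset some HSB-2 values changed sign, among them LIG1, MCM2, ORC1 and RFC2 with shRNA-4058 against scrambled.

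All 11 licensing genes fell with shRNA-4057 in Jurkat, with a median log2 fold change of -0.48 against scrambled (27.3% of all genes fell). With shRNA-4058, 6 fell and 1 rose against scrambled (26.7% and 19.7% of all genes). Against wild-type that hairpin gave 1 lower and 7 higher (21.9% and 13.9%). CDT1, which brings the MCM2-7 helicase to origins, had the largest change of the 45 genes in Jurkat (chromosome 16, 88870197 to 88875666, plus strand, GRCh37). In Jurkat, CDT1 was at 218 and 241 CPM in wild-type cells, 299 and 304 with scrambled, 157 and 147 with shRNA-4057 and 161 and 175 with shRNA-4058. In HSB-2 it was at 149 and 151 CPM in wild-type cells, 136 and 141 with scrambled, 195 and 179 with shRNA-4057 and 191 and 201 with shRNA-4058. The hairpin libraries of Jurkat lay below all controls, and those of HSB-2 above all controls. Pooled, the change against scrambled was -0.89 ± 0.072 in Jurkat (adjusted p = 0.000316, edgeR) and 0.47 ± 0.060 in HSB-2 (adjusted p = 0.000348). The HSB-2 value became 0.17 (adjusted p = 0.0799) with the offset, and CDT1 had the highest transcript GC content of the 45 genes, 64.3%, but its change with each hairpin against either control kept its sign. The Jurkat value was -0.49 against wild-type (adjusted p = 0.0146).

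CDC6, the ATPase that works with CDT1, separated the hairpins in Jurkat more than any of the other 44 genes. In Jurkat it was at 77.8 and 78.3 CPM in wild-type cells, 97.4 and 99.2 with scrambled, 62.95 and 60.7 with shRNA-4057 and 95.3 and 97.96 with shRNA-4058. Values with shRNA-4058 overlapped those with scrambled, and values with shRNA-4057 lay below wild-type. The difference between the hairpins was -0.64 ± 0.037 on the log2 scale (adjusted p = 3.35e-12, edgeR). In HSB-2, where CDC6 was at 98.2 and 97.8 CPM in wild-type cells, 99.1 and 99.6 with scrambled, 82.2 and 80.99 with shRNA-4057 and 82.96 and 83.00 with shRNA-4058, the hairpins did not pass the test of their difference (-0.024, adjusted p = 0.709), and both lay below both controls.

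The 6 subunits of the MCM2-7 ring had a summed level in Jurkat of 1986 and 2035 CPM in wild-type cells, 2379 and 2408 with scrambled, 1699 and 1668 with shRNA-4057 and 2206 and 2282 with shRNA-4058. The 4 groups did not overlap, with shRNA-4057 lowest and scrambled highest. MCM6 (chromosome 2, 136597196 to 136634013, minus strand, GRCh37) was at 274 and 266 CPM in wild-type cells, 294 and 298 with scrambled, 211 and 215 with shRNA-4057 and 313 and 310.5 with shRNA-4058, a difference of -0.55 ± 0.033 between the hairpins (adjusted p = 4.38e-12, edgeR). Each of MCM3, MCM4, MCM5, MCM6 and MCM7 fell with shRNA-4057 and rose with shRNA-4058 against wild-type. CDC6, MCM10, FEN1, CHEK1, EXO1 and GMNN, which encodes the CDT1 inhibitor geminin, did the same, so that 11 of 45 genes had this pattern, against 3.23% of all genes with opposite calls. Without 1 library the higher calls of GMNN, MCM5, MCM7, CHEK1 and EXO1 with shRNA-4058 did not pass (highest adjusted p = 0.246, 0.292, 0.165, 0.201 and 0.2), nor did the lower call of FEN1 with shRNA-4057 (0.0843). Against scrambled, 3 genes had opposite calls (MCM4, GINS3 and RAD18, against 2.64%).

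In HSB-2 the summed MCM2-7 level was 2037 and 2047 CPM in wild-type cells, 2038 and 2109 with scrambled, 1940 and 1912 with shRNA-4057 and 1860 and 1906 with shRNA-4058. Its hairpin libraries lay below its controls, by less than in Jurkat with shRNA-4057. MCM6 was at 232 and 237 CPM in wild-type cells, 251 and 253 with scrambled, 202 and 204 with shRNA-4057 and 196 and 188 with shRNA-4058, with a pooled change of -0.34 ± 0.052 (adjusted p = 0.000966, edgeR), and all 4 hairpin libraries were below all controls. MCM7, the third highest of the 45 genes per kilobase of exon, was at 505 and 528 CPM in wild-type cells, 637 and 641 with scrambled, 414 and 403 with shRNA-4057 and 547 and 572 with shRNA-4058 in Jurkat. In HSB-2 it was at 523 and 523 CPM in wild-type cells, 499.5 and 526 with scrambled, 448 and 436 with shRNA-4057 and 455 and 474 with shRNA-4058, so that hairpin libraries lay below scrambled in both lines but not below wild-type in Jurkat with shRNA-4058. It fell in HSB-2 (-0.17 ± 0.053 pooled, adjusted p = 0.0289; 0.229 without the second scrambled library), and in Jurkat its pooled value of -0.38 did not pass the test (adjusted p = 0.0957). MCM2 in HSB-2 had a pooled value of 0.042 (adjusted p = 0.546), which became -0.23 with the offset. MCM7 overlaps AP4M1 on the opposite strand over 7.9% of its exon length, and MCM2 overlaps a noncoding RNA over 23.6% of its own.

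**Figure D3:**
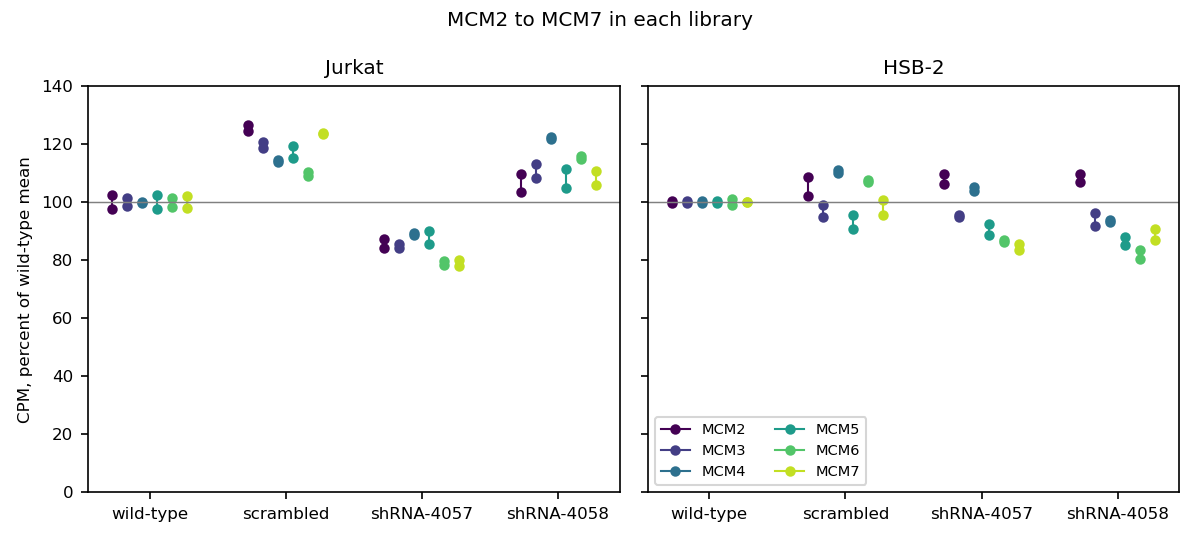
MCM2 to MCM7 in each library, in CPM as a percent of the mean of the 2 wild-type libraries of the same line (vertical axis), by group (horizontal axis); colour gives the gene and a line joins the 2 libraries of a group. In Jurkat all 6 genes lie above wild-type with scrambled and below it with shRNA-4057, and in HSB-2 the genes part, with MCM6 and MCM7 below wild-type with both hairpins.

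ORC1 and ORC6 encode subunits of the origin recognition complex. ORC1 fell with both hairpins against scrambled in Jurkat (-0.47 and -0.25, adjusted p = 3.29e-09 and 3.76e-05, edgeR) and rose in HSB-2 (0.21 and 0.16, adjusted p = 0.000281 and 0.00348). With the offset the HSB-2 values were 0.078 (adjusted p = 0.131) and -0.066 (adjusted p = 0.19), and that with shRNA-4058 against wild-type did not pass either (0.093, adjusted p = 0.0699). ORC6 fell with both hairpins in HSB-2 (-0.12 and -0.36, adjusted p = 0.0384 and 3.36e-07). Geminin RNA (GMNN) fell in HSB-2 with both hairpins against both controls, by log2 values from -0.22 to -0.12 (adjusted p = 0.000214 to 0.0332). Against scrambled with shRNA-4057, ORC6 and GMNN did not pass without the first HSB-2 scrambled library (adjusted p = 0.268 and 0.153).

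Among the genes of helicase activation, CDC45 fell in both lines. CDC45 binds the MCM ring and is part of the active helicase. In Jurkat it was at 87.7 and 80.9 CPM in wild-type cells, 106 and 105 with scrambled, 77.9 and 73.5 with shRNA-4057 and 73.3 and 77.9 with shRNA-4058. In HSB-2 it was at 80.8 and 85.6 CPM in wild-type cells, 79.4 and 79.7 with scrambled, 69.8 and 67.7 with shRNA-4057 and 60.3 and 59.8 with shRNA-4058. All hairpin libraries lay below all control libraries of their line. The pooled change was -0.46 ± 0.059 in Jurkat (adjusted p = 0.00165, edgeR) and -0.30 ± 0.076 in HSB-2 (adjusted p = 0.0125), and the difference between the lines did not pass the test (0.18 ± 0.10, adjusted p = 0.183). With wild-type in place of scrambled the pooled Jurkat value was -0.13 (adjusted p = 0.253), and the HSB-2 value did not pass without either scrambled library (adjusted p = 0.0878 and 0.0943).

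The 4 GINS genes encode the complex that joins CDC45 on the ring. GINS2 was at 56.6 and 57.2 CPM in wild-type cells, 75.1 and 78.3 with scrambled, 55.9 and 55.6 with shRNA-4057 and 68.04 and 70.1 with shRNA-4058 in Jurkat. The HSB-2 levels were 53.2 and 54.95 CPM in wild-type cells, 55.9 and 56.9 with scrambled, 45.7 and 49.9 with shRNA-4057 and 41.8 and 42.8 with shRNA-4058. Scrambled cells had the highest GINS2 values in Jurkat, and the hairpin libraries the lowest in HSB-2. The pooled change passed the test in HSB-2 (-0.32 ± 0.077, adjusted p = 0.0103, edgeR), although not without either scrambled library (adjusted p = 0.0711 and 0.0899), and did not in Jurkat (-0.27 ± 0.11, adjusted p = 0.107). GINS1 in HSB-2 was at 64.7 and 66.6 CPM in wild-type cells, 65.8 and 62.2 with scrambled, 65.9 and 68.3 with shRNA-4057 and 51.8 and 54.3 with shRNA-4058, so it was the shRNA-4058 libraries that stood below the rest, with a difference between hairpins of 0.34 ± 0.043 (adjusted p = 2.13e-06). GINS4 was the one gene with opposite calls in HSB-2 (0.16 and -0.12 against scrambled, adjusted p = 0.00626 and 0.0402), against 0.906% of all genes, and its value with shRNA-4058 was -0.021 without the second library of that hairpin (adjusted p = 0.821). GINS3, among the 3 lowest of the 45 genes per kilobase, was at 29.8 and 31.04 CPM in wild-type cells, 32.1 and 32.3 with scrambled, 28.5 and 29.2 with shRNA-4057 and 34.3 and 36.7 with shRNA-4058 in Jurkat. There it rose with shRNA-4058 (0.14, adjusted p = 0.0414) and fell with shRNA-4057 (-0.16, adjusted p = 0.0207), neither of which passed without the first scrambled library (adjusted p = 0.142 and 0.06). MCM10, also grouped here under helicase activation, differed between the hairpins in both lines. The difference was -0.38 in Jurkat (adjusted p = 1.29e-08, edgeR) and 0.19 in HSB-2 (adjusted p = 0.000446). The HSB-2 difference was 0.13 without the second shRNA-4058 library.

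Of the 12 genes of DNA synthesis, 11 fell with shRNA-4057 and 8 with shRNA-4058 against scrambled in Jurkat (27.3% and 26.7% of all genes). In HSB-2 with the same hairpins, 3 and 4 fell while 5 and 3 rose, where 21.7% and 26.2% of all genes fell and 21.9% and 26.6% rose. RFC2 and RFC5 encode subunits of the clamp loader. RFC2 in Jurkat was at 72.3 and 72.7 CPM in wild-type cells, 90.1 and 93.3 with scrambled, 59.7 and 56.1 with shRNA-4057 and 70.2 and 72.97 with shRNA-4058. RFC5 was at 101 and 97.9 CPM in wild-type cells, 122 and 119 with scrambled, 83.5 and 83.9 with shRNA-4057 and 94.3 and 94.5 with shRNA-4058. For both genes the scrambled libraries were the highest and the shRNA-4057 libraries the lowest. The pooled changes were -0.48 ± 0.11 (adjusted p = 0.0179, edgeR) and -0.41 ± 0.077 (adjusted p = 0.00757), neither of which passed without either of the scrambled libraries (adjusted p = 0.0959 and 0.137 for RFC2, 0.0758 and 0.0712 for RFC5). In HSB-2, RFC2 was at 60.9 and 60.3 CPM in wild-type cells, 60.3 and 62.3 with scrambled, 67.2 and 67.8 with shRNA-4057 and 68.4 and 68.9 with shRNA-4058 and its 4 hairpin libraries were above its controls (0.16 ± 0.051 pooled, adjusted p = 0.0376), but with the offset the value was -0.046, and without the first scrambled library it did not pass (adjusted p = 0.276). The RFC3 and RFC4 subunits fell in HSB-2, with values of -0.22 and -0.42 for RFC3 with the 2 hairpins against scrambled (adjusted p = 0.0012 and 1.81e-07) and -0.12 and -0.19 for RFC4 (adjusted p = 0.0269 and 0.000974; 0.163 without the second scrambled library and 0.386 without the second shRNA-4058 library). In that line RFC2 thus moved opposite to RFC3 and RFC4 without the offset. With it, RFC2 was at 0.0083 and -0.058 with the 2 hairpins against scrambled (adjusted p = 0.906 and 0.22, edgeR).

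POLD1 and POLE are the catalytic subunits of the lagging and leading strand polymerases. POLD1 fell in Jurkat with both hairpins (-0.45 and -0.39 against scrambled, adjusted p = 2.06e-08 and 2.21e-07, edgeR), and its pooled value in HSB-2 was -0.021 (adjusted p = 0.793). POLE fell with both hairpins in HSB-2 (-0.18 and -0.26, adjusted p = 0.000157 and 5.62e-07), and in Jurkat fell with shRNA-4058 (-0.15, adjusted p = 0.00066; 0.0833 without the second scrambled library) but had a value of 0.051 with shRNA-4057 (adjusted p = 0.23). PRIM1, the catalytic primase subunit, was at 48.3 and 45.7 CPM in wild-type cells, 51.7 and 44.8 with scrambled, 31.7 and 34.8 with shRNA-4057 and 47.1 and 46.7 with shRNA-4058 in Jurkat, where the shRNA-4057 libraries stood alone below the rest. It overlaps NACA on the same strand over 4.2% of its exon length, so its reads are uncertain. PCNA, the clamp, was the second most abundant of the 45 genes per kilobase, at 211 and 201 CPM in wild-type cells, 269.9 and 243 with scrambled, 186 and 195 with shRNA-4057 and 234 and 236 with shRNA-4058 in Jurkat. The HSB-2 levels were 298 and 311 CPM in wild-type cells, 285 and 284 with scrambled, 315 and 321 with shRNA-4057 and 308 and 286 with shRNA-4058, a narrower range. The pooled PCNA values of -0.24 ± 0.11 in Jurkat and 0.12 ± 0.059 in HSB-2 did not pass the test (adjusted p = 0.142 and 0.144). RPA1 and RPA2, which coat single-stranded DNA, rose with both hairpins against scrambled in HSB-2 (RPA1 0.12 and 0.32, adjusted p = 0.00352 and 1.43e-08; RPA2 0.17 and 0.11, adjusted p = 0.00122 and 0.0217). Without the first scrambled library, RPA1 with shRNA-4057 and RPA2 with shRNA-4058 did not pass (adjusted p = 0.0847 and 0.0846). Against wild-type, RPA1 was called higher with 1 hairpin and RPA2 with neither. FEN1 and LIG1 finish the lagging strand, and LIG1 fell in Jurkat with both hairpins against scrambled (-0.30 and -0.33, adjusted p = 8.14e-06 and 2.49e-06), but with 1 hairpin against wild-type.

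All 3 genes of nucleotide supply differed between the lines in their change with the hairpins (the differences are given further on). RRM2, the regulated small subunit of ribonucleotide reductase, lies at chromosome 2, 10260825 to 10351851, plus strand, GRCh37. The HSB-2 levels were 256 and 264 CPM in wild-type cells, 220.2 and 219 with scrambled, 385 and 389.5 with shRNA-4057 and 346 and 349.9 with shRNA-4058. All 4 hairpin libraries were above all controls, with a pooled change of 0.75 ± 0.067 against scrambled (adjusted p = 4.92e-05, edgeR) and 0.49 against wild-type (adjusted p = 0.00158). In Jurkat RRM2 was at 349 and 341 CPM in wild-type cells, 464 and 454 with scrambled, 406 and 424 with shRNA-4057 and 456 and 437 with shRNA-4058. There the wild-type libraries stood lowest, and the pooled value was -0.066 ± 0.063 against scrambled (adjusted p = 0.458) but 0.35 against wild-type (adjusted p = 0.0205).

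TYMS, thymidylate synthase, had the highest level per kilobase of the 45 genes, 191 CPM per kilobase on average over wild-type cells of both lines. In Jurkat it was at 581 and 585 CPM in wild-type cells, 744 and 743 with scrambled, 491 and 493 with shRNA-4057 and 532 and 536 with shRNA-4058, lowest in the hairpin libraries and highest with scrambled. The pooled change was -0.51 ± 0.059 (adjusted p = 0.00114, edgeR), and -0.16 with wild-type in place of scrambled (adjusted p = 0.149), while each hairpin was called against wild-type in the fit of all groups (-0.25 and -0.13, adjusted p = 3.15e-07 and 0.00109). HSB-2 libraries held 337 and 349.8 CPM in wild-type cells, 355 and 359 with scrambled, 423 and 425 with shRNA-4057 and 368 and 364 with shRNA-4058, with a pooled value of 0.15 ± 0.078 that did not pass (adjusted p = 0.158). ENOSF1 overlaps TYMS on the opposite strand over 39.9% of its exon length, with 92156 counts over all libraries against 917921 for TYMS. RRM1, the large reductase subunit, fell in Jurkat (-0.31 ± 0.090 pooled, adjusted p = 0.0396; 0.215 without the first scrambled library) and had a pooled value of 0.025 ± 0.073 in HSB-2 (adjusted p = 0.812).

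**Figure D4:**
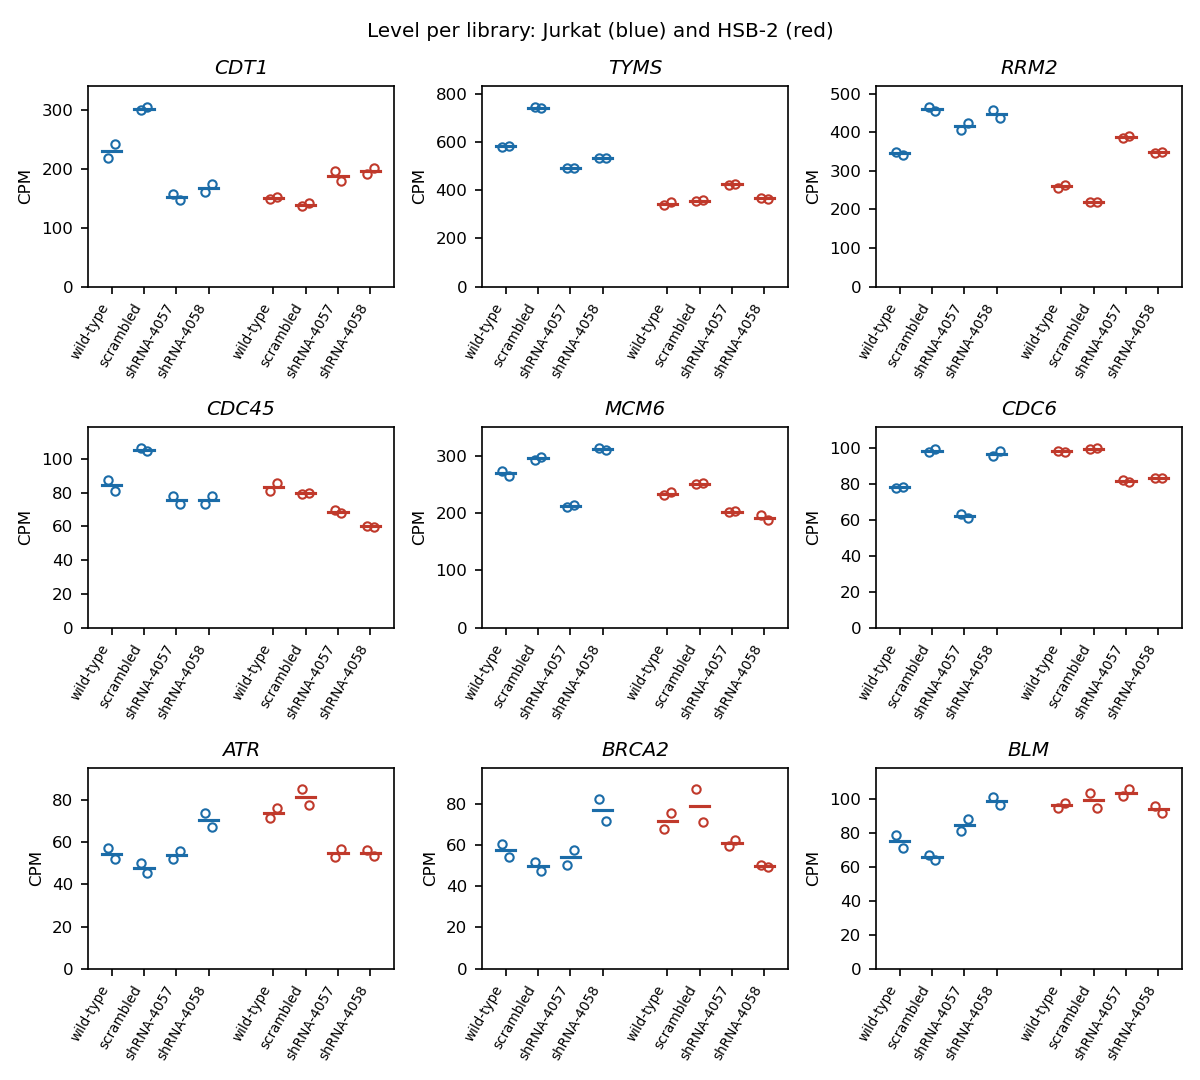
CPM (vertical axes, from 0) of 9 genes in each of the 16 libraries, by group (horizontal axes), Jurkat in blue and HSB-2 in red; circles are libraries and bars the mean of the 2 libraries of a group. CDT1 with a hairpin lies below the controls in Jurkat and above them in HSB-2, RRM2 lies above its controls in HSB-2, and ATR with a hairpin lies below its controls in HSB-2.

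Of the 6 fork checkpoint genes, 3 fell and 2 rose with shRNA-4057 against scrambled in Jurkat, and 1 fell and 4 rose with shRNA-4058. Of all genes, 27.3% fell and 22.7% rose with shRNA-4057, and 26.7% and 19.7% with shRNA-4058. ATR, the kinase that senses stalled forks (chromosome 3, 142167849 to 142297575, minus strand, GRCh37), was at 57.2 and 52.2 CPM in wild-type cells, 50.04 and 45.4 with scrambled, 52.03 and 55.8 with shRNA-4057 and 73.99 and 67.5 with shRNA-4058 in that line. HSB-2 libraries held 71.7 and 76.3 CPM in wild-type cells, 85.2 and 77.7 with scrambled, 52.9 and 57.04 with shRNA-4057 and 56.6 and 53.7 with shRNA-4058. The shRNA-4058 libraries of Jurkat were above its other libraries, and all hairpin libraries of HSB-2 were below the controls. Against scrambled, ATR rose with both hairpins in Jurkat (0.18 ± 0.063 and 0.57 ± 0.063, adjusted p = 0.0233 and 6.51e-08, edgeR), though the value with shRNA-4057 did not pass without the second shRNA-4057 library (adjusted p = 0.204), nor did the pooled value of 0.41 ± 0.15 (adjusted p = 0.0727). In HSB-2 it fell with both (-0.57 ± 0.062 and -0.56 ± 0.061, adjusted p = 5.37e-08 and 4.23e-08; pooled -0.56 ± 0.059, adjusted p = 0.00013). ATR was also the lowest of the 45 genes per kilobase of its annotated exons, 2.36 CPM on average over wild-type cells of both lines, over an exon length of 27234 bases.

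CHEK1, the kinase that ATR activates, fell with both hairpins in HSB-2 against both controls, by log2 values from -0.28 to -0.12 (adjusted p = 5.8e-05 to 0.0479; 0.406 for the latter without the first scrambled library). In Jurkat it fell with shRNA-4057 against both controls (-0.30 against scrambled, adjusted p = 1.54e-05, edgeR) and rose with shRNA-4058 against wild-type (0.18, adjusted p = 0.00584). CLSPN, the adaptor between ATR and CHEK1, was at 155 and 156 CPM in wild-type cells, 130.1 and 131 with scrambled, 134 and 139 with shRNA-4057 and 115 and 111 with shRNA-4058 in HSB-2, so wild-type libraries stood above all others. In Jurkat, CLSPN rose with both hairpins against scrambled (0.099 and 0.35, adjusted p = 0.0333 and 3.78e-08; 0.192 for the former without the second shRNA-4057 library). TIMELESS fell with both hairpins in Jurkat (-0.33 and -0.20, adjusted p = 5.33e-08 and 9.27e-05), whereas its partner TIPIN rose with shRNA-4058 (0.43, adjusted p = 2.04e-05) and had a value of -0.060 with shRNA-4057 (adjusted p = 0.516). RAD18, a ligase that marks PCNA at stalled forks, fell in HSB-2 with both hairpins against scrambled (-0.23 and -0.16, adjusted p = 0.00218 and 0.0193; 0.0523 and 0.229 without the first scrambled library). It was called with neither hairpin against wild-type there.

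Of the 7 fork repair genes, 3 fell and 3 rose with shRNA-4057 against scrambled in Jurkat, and 1 fell and 4 rose with shRNA-4058. The shares of all genes that fell and rose were again 27.3% and 22.7%, and 26.7% and 19.7%. BRCA2, which shields stalled forks (chromosome 13, 32889223 to 32974405, plus strand, GRCh37), was at 60.6 and 54.2 CPM in wild-type cells, 51.9 and 47.5 with scrambled, 50.4 and 57.4 with shRNA-4057 and 82.3 and 71.5 with shRNA-4058 in Jurkat. Its HSB-2 levels were 67.9 and 75.4 CPM in wild-type cells, 86.9 and 71.3 with scrambled, 59.6 and 62.4 with shRNA-4057 and 50.1 and 49.03 with shRNA-4058. The shRNA-4058 libraries were the highest in Jurkat and the lowest in HSB-2. The difference between the hairpins was -0.51 ± 0.081 in Jurkat (adjusted p = 2.16e-05, edgeR) and 0.30 ± 0.082 in HSB-2 (adjusted p = 0.00918; 0.108 without the second shRNA-4058 library and 0.0589 by DESeq2). Pooled against scrambled, BRCA2 fell in HSB-2 (-0.51 ± 0.11, adjusted p = 0.00717). That value was -0.32 with the offset (adjusted p = 0.0122), and it was -0.37 and did not pass without the first scrambled library (adjusted p = 0.117). The pooled Jurkat value of 0.42 ± 0.19 did not pass (adjusted p = 0.129). BRCA2 had the lowest transcript GC content of the 45 genes, 36.4%.

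BLM, a helicase that unwinds recombination intermediates, was at 78.8 and 71.2 CPM in wild-type cells, 67.3 and 63.9 with scrambled, 80.96 and 88.4 with shRNA-4057 and 101 and 96.4 with shRNA-4058 in Jurkat. All hairpin libraries were above all controls, with a pooled change of 0.51 ± 0.099 (adjusted p = 0.00892, edgeR) that did not pass without either scrambled library (adjusted p = 0.0684 and 0.101) or against wild-type (0.32, adjusted p = 0.097). In HSB-2 BLM was at 94.9 and 97.99 CPM in wild-type cells, 103 and 95.00 with scrambled, 102 and 106 with shRNA-4057 and 96.03 and 92.03 with shRNA-4058. Values with each hairpin overlapped those with scrambled, while those with shRNA-4057 lay above wild-type and above shRNA-4058. There BLM was called with neither hairpin against either control. BRCA1 rose in Jurkat with both hairpins against scrambled (0.19 and 0.33, adjusted p = 0.000755 and 8.69e-07), but with 1 hairpin against wild-type, and fell in HSB-2 with shRNA-4058 (-0.21, adjusted p = 0.000198; 0.167 without the second library of that hairpin). FANCA, a subunit of the Fanconi core complex, rose in Jurkat with both hairpins against both controls, by 0.10 to 0.21 (adjusted p = 0.0255 to 9.2e-05), and fell in HSB-2 with values from -0.39 to -0.10 (adjusted p = 7.22e-09 to 0.0281). The smallest of these values did not pass without the second shRNA-4058 library in Jurkat (adjusted p = 0.242) or without the second scrambled library in HSB-2 (adjusted p = 0.156). ZNF276 overlaps it on the opposite strand over 19.6% of its exon length. FANCI, which is ubiquitinated with FANCD2 at damaged forks, rose in HSB-2 with both hairpins (0.22 and 0.12 against scrambled, adjusted p = 6.89e-05 and 0.0154; 0.253 for the latter without the first shRNA-4058 library), whereas pooled FANCD2 values were -0.031 in Jurkat and -0.00097 in HSB-2 (adjusted p = 0.758 and 0.992). EXO1, an exonuclease, was lowest with shRNA-4058 in HSB-2, at 75.2 and 76.97 CPM in wild-type cells, 77.4 and 77.97 with scrambled, 72.4 and 76.9 with shRNA-4057 and 61.1 and 56.00 with shRNA-4058, a difference between the hairpins of 0.35 ± 0.046 (adjusted p = 4.08e-06).

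The control arms differed from each other, and in Jurkat they did so for most of the genes. Scrambled was higher than wild-type for 27 of the 45 genes in Jurkat and lower for 4 (14.8% and 11% of all genes), with a median log2 fold change of 0.19 against -0.0042 for all genes. By role, 10 of 11 licensing genes, 4 of 6 helicase activation genes, 9 of 12 synthesis genes and 3 of 3 nucleotide genes were higher. Of the 6 fork checkpoint genes 0 were higher and 1 lower, and of the 7 fork repair genes 1 was higher and 2 lower. The largest changes were those of GINS2 (0.43 ± 0.045, adjusted p = 1.24e-07, edgeR), RRM2 (0.41 ± 0.033, adjusted p = 1.72e-09) and CDT1 (0.39 ± 0.050, adjusted p = 2.4e-06). ATR, BLM, BRCA1 and POLE were the 4 that were lower, none of which passed with each library left out in turn (highest adjusted p = 0.271, 0.213, 0.192 and 0.0543). In HSB-2, 3 genes were higher and 6 lower (16.1% and 17.9% of all genes), led by CLSPN (-0.25 ± 0.037, adjusted p = 7.86e-06), RRM2 (-0.24 ± 0.033, adjusted p = 2.75e-06) and PRIM1 (0.19 ± 0.061, adjusted p = 0.0167). That split became 13 higher and 4 lower with the offset, under which MCM5 and TIMELESS turned from lower to above 0, and 1 higher and 4 lower without the first wild-type library. PRIM1 in HSB-2 was at 36.9 and 38.6 CPM in wild-type cells, 44.2 and 41.9 with scrambled, 40.3 and 40.3 with shRNA-4057 and 45.6 and 41.5 with shRNA-4058, and its call did not pass without that library (adjusted p = 0.148) or without the first scrambled library (adjusted p = 0.155). RRM2 thus stood in opposite order in the controls of the 2 lines. The summed level of 4 B-lineage markers also moved with the control arms of Jurkat, from 35.4 to 36.0 CPM in wild-type cells to 61.2 to 64.5 with scrambled and 21.8 to 22.9 with a hairpin, almost all of it CD79A, since the other 3 were below 1 CPM. In HSB-2 the summed level of 7 T-lineage markers was 3173 to 3192 CPM in wild-type cells, 2752 to 2823 with scrambled, 3435 to 3489 with shRNA-4057 and 3783 to 3888 with shRNA-4058. In Jurkat that sum was 2454 to 2496 CPM in wild-type cells, 2663 to 2726 with scrambled, 2357 to 2386 with shRNA-4057 and 2182 to 2264 with shRNA-4058, so scrambled was highest in Jurkat and lowest in HSB-2. The part of these markers in the results was not tested.

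Between the hairpins, 36 genes were lower with shRNA-4057 than with shRNA-4058 in Jurkat and 1, POLE, was higher (16.2% and 17.7% of all genes). In HSB-2, 20 were higher with shRNA-4057 and 1, RPA1, was lower (10.5% and 14.3%), 33 and 1 with the offset, and 9 and 2 without the second shRNA-4058 library. Between wild-type cells, 18 genes were higher in HSB-2 and 17 in Jurkat (33.5% and 34.6% of all genes). The offset moved the median of all genes by 0.105 in this comparison and its split to 30 and 8.

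The effect of the pooled hairpins was compared between the lines in 1 fit of 12 libraries, with the hairpin libraries again taken as independent. It differed for 20 of the 45 genes, 15 with a higher log2 fold change in HSB-2 than in Jurkat and 5 with a lower one (20.6% and 17.1% of all genes), or 10 and 6 with the offset. Without 1 library, 11 (first HSB-2 scrambled), 13 (first Jurkat scrambled) and 12 (second Jurkat scrambled) were called. CDT1 led, with a difference of 1.39 ± 0.10 (adjusted p = 6.1e-07, edgeR), followed by ATR (-0.95 ± 0.17, adjusted p = 0.000772), BRCA2 (-0.91 ± 0.24, adjusted p = 0.00902), RRM2 (0.84 ± 0.092, adjusted p = 2.13e-05) and TYMS (0.69 ± 0.10, adjusted p = 0.000235). With wild-type in place of scrambled, 7 differences were called; CDT1 was 0.88 (adjusted p = 0.00021), ATR -0.61 (adjusted p = 0.0248) and TYMS 0.39 (adjusted p = 0.0137), while RRM2 was 0.19 (adjusted p = 0.16) and BRCA2 -0.56 (adjusted p = 0.107). BRCA2 also did not pass without the first HSB-2 (adjusted p = 0.0581) or the second Jurkat scrambled library (adjusted p = 0.0505). All 3 nucleotide genes and 7 of 12 synthesis genes had higher values in HSB-2. Of the 7 fork repair genes, 4 (BRCA1, BRCA2, FANCA and BLM) had lower values and FANCI a higher one (0.32). The pooled change of USP7 itself differed between the lines by 0.45 ± 0.27, which did not pass (adjusted p = 0.208).

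**Figure D5:**
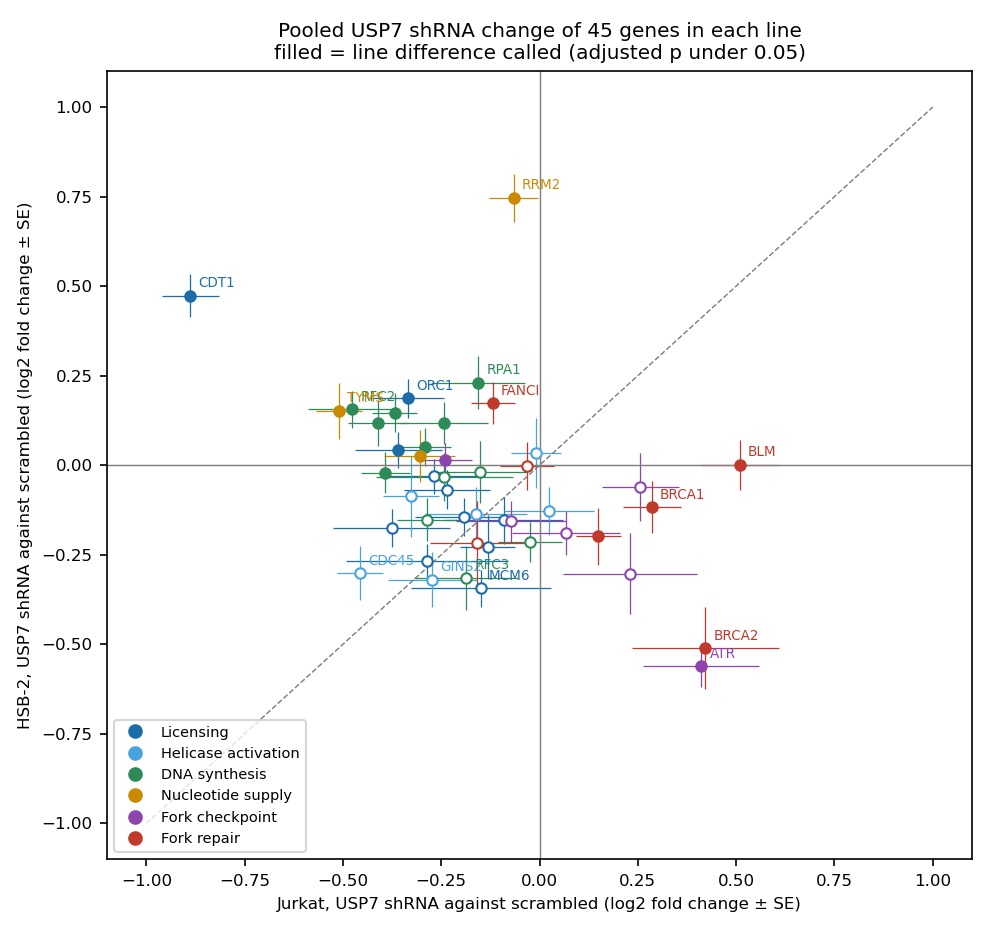
Pooled log2 fold change of the 45 genes against scrambled in Jurkat (horizontal axis) and HSB-2 (vertical axis), with SE from edgeR's quasi-likelihood fit as bars. Colour gives the role, filled points are the 20 genes whose line difference had an adjusted p under 0.05, and the dashed line marks equal change; CDT1 and RRM2 lie above the line, and ATR and BRCA2 below it.

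Across the 45 genes the Pearson correlation of transcript GC content with the pooled log2 fold change was -0.565 in Jurkat and 0.343 in HSB-2, and 0.544 with the difference between the lines. With the offset these values were -0.41, -0.209 and 0.131. The genes share libraries and their GC content goes with their role, from a median of 41.4% for fork checkpoint genes to 50.7% for licensing genes, so the correlations are given as a description. The 20 genes with an E2F-type match had a median pooled log2 fold change of -0.22 in Jurkat and -0.14 in HSB-2, and the 20 with a window but no match had -0.16 and -0.028. In Jurkat, 5 of the former fell and 0 rose, and 8 of the latter fell and 2 rose. There 15.7% of all genes fell and 12.4% rose. In HSB-2, 6 of the former fell and 1 rose, and 4 of the latter fell and 4 rose (17.8% and 20.3% of all genes).

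A wider list of 66 other replication and repair genes gave 11 lower and 3 higher in Jurkat pooled against scrambled (15.7% and 12.4% of all genes), and 25 lower and 7 higher in HSB-2 (17.8% and 20.3%). TK1, the thymidine salvage kinase, had the largest change of these in HSB-2. TK1 was at 10.4 ± 0.47 CPM in wild-type cells, 2.61 ± 0.36 with scrambled, 19.00 ± 1.5 with shRNA-4057 and 23.6 ± 0.41 with shRNA-4058 (mean ± SD, n = 2) in HSB-2, a pooled change of 3.03 ± 0.15 (adjusted p = 2e-06, edgeR). In Jurkat TK1 was at 33.3 ± 0.68 CPM in wild-type cells, 54.5 ± 0.43 with scrambled, 29.1 ± 1.6 with shRNA-4057 and 39.4 ± 2.2 with shRNA-4058, a pooled change of -0.64 ± 0.15 (adjusted p = 0.0165). Against wild-type its log2 fold changes were 0.86 and 1.17 with the 2 hairpins in HSB-2 (adjusted p = 1.8e-09 and 3.95e-12), and in Jurkat -0.19 with shRNA-4057 (adjusted p = 0.0276) but 0.24 with shRNA-4058 (adjusted p = 0.00511). TK1 thus rose in HSB-2 against either control, as RRM2 did, and its direction in Jurkat depended on the control and the hairpin.

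RAD50, part of the MRN complex at DNA ends, rose in Jurkat (0.42 ± 0.12, adjusted p = 0.0349, edgeR) and fell in HSB-2 (-0.60 ± 0.054, adjusted p = 5.44e-05), the same directions as ATR with each hairpin against scrambled. MCM9 and POLA1 were the other 2 that rose in Jurkat (0.43 and 0.35, adjusted p = 0.00424 and 0.0499), and POLE4 and RNASEH2A fell furthest with TK1 (-0.70 and -0.65, adjusted p = 0.00454 and 0.00506). In HSB-2, POLD4 and RAD9A followed TK1 among those that rose (0.49 and 0.29, adjusted p = 0.035 and 0.00396), and FANCB and ORC5 fell with RAD50 (-0.62 and -0.58, adjusted p = 0.00265 and 0.0016). Against wild-type, RAD50 in Jurkat (-0.046), and POLD4, RAD9A, FANCB and ORC5 in HSB-2 (0.21, 0.019, -0.091 and -0.19), did not pass with shRNA-4057 (adjusted p = 0.635, 0.245, 0.841, 0.589 and 0.157). With shRNA-4058, RNASEH2A in Jurkat and RAD9A in HSB-2 did not pass (-0.077 and 0.052, adjusted p = 0.233 and 0.435).

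Of 24 regulators of the G1 to S transition, 3 rose and 4 fell in Jurkat pooled against scrambled, near the share of all genes (12.4% and 15.7%), and 10 rose and 2 fell in HSB-2 (20.3% and 17.8%). CDKN1B, which encodes the CDK inhibitor p27, fell in Jurkat (-0.91 ± 0.053, adjusted p = 0.000103, edgeR), as did CDK2 (-0.53, adjusted p = 0.00154) and E2F1 (-0.37, adjusted p = 0.00838), while CCND2, RB1 and CDK6 rose (1.77, 0.87 and 0.41, adjusted p = 0.000461, 0.000304 and 0.0479). Against wild-type these Jurkat log2 fold changes were smaller in size. With shRNA-4057 and shRNA-4058, CCND2 was at 0.53 and 0.93, RB1 at 0.32 and 0.39 and CDK6 at -0.073 and 0.28. CDKN1B was at -0.57 and -0.56, CDK2 at -0.23 and -0.10 and E2F1 at -0.13 and 0.0041. Of these, CDK6 with shRNA-4057 and E2F1 with shRNA-4058 did not pass (adjusted p = 0.189 and 0.963). CDKN1A, which encodes the CDK inhibitor p21, was at 86.6 ± 0.0017 CPM in wild-type cells, 43.7 ± 0.16 with scrambled, 96.5 ± 1.7 with shRNA-4057 and 150.3 ± 4.1 with shRNA-4058 (mean ± SD, n = 2) in HSB-2, where it rose (1.5 ± 0.20 pooled, adjusted p = 0.000514), as did CDKN2C (0.78, adjusted p = 2.01e-05), and CDK6 and MYC fell (-0.61 and -0.50, adjusted p = 0.0016 and 0.00259). CCND2 was called higher in HSB-2 (1.31, adjusted p = 0.0411) at group means no higher than 0.311 CPM. On the log2 scale against wild-type in HSB-2, CDKN1A was at 0.16 and 0.79 with the 2 hairpins, CDKN2C at 0.60 and 0.54, CDK6 at -0.27 and -0.58 and MYC at -0.43 and -0.14. All of these were called in the same direction as against scrambled. CCND2 was at -0.42 and -0.13 and did not pass (adjusted p = 0.446 and 0.774).

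Of 20 mitotic genes, 6 rose and 4 fell in Jurkat pooled against scrambled (12.4% and 15.7% of all genes), with CENPE, CENPF and KIF20A highest (0.89, 0.55 and 0.35, adjusted p = 0.00101, 0.00151 and 0.0341, edgeR) and AURKB, CCNB2 and BIRC5 lowest (-0.30, -0.27 and -0.26, adjusted p = 0.0306, 0.0101 and 0.021). Against wild-type, 4 rose and 6 fell with shRNA-4057 in Jurkat (15.4% and 21.2% of all genes). With shRNA-4058, 1 rose and 8 fell against wild-type (13.9% and 21.9%). On the log2 scale CENPE was then at 0.091 and 0.016 (adjusted p = 0.423 and 0.912). CENPF was at 0.11 and -0.027 (adjusted p = 0.0217 and 0.625) and KIF20A at 0.17 and -0.093 (adjusted p = 0.00277 and 0.0947). AURKB was at -0.040 and -0.20 (adjusted p = 0.594 and 0.0031) and BIRC5 at 0.041 and -0.076 (adjusted p = 0.428 and 0.118), whereas CCNB2 was called lower with both. In HSB-2, 13 rose against scrambled (20.3% of all genes), led by KIF20A, AURKB and PLK1 (0.73, 0.60 and 0.57, adjusted p = 0.000211, 8.19e-05 and 0.000276), and BUB1 fell (-0.37, adjusted p = 0.00591; 17.8% of all genes). Against wild-type, 7 rose and 4 fell with shRNA-4057 (16% and 15.7% of all genes). With shRNA-4058, 8 rose and 4 fell (23% and 21.1%). The values were 0.12 and 0.33 for KIF20A (adjusted p = 0.0382 and 7.04e-07) and 0.19 and 0.28 for AURKB (adjusted p = 0.00494 and 7.3e-05). PLK1 was at -0.050 and 0.11 (adjusted p = 0.458 and 0.052), and BUB1 rose (0.15 and 0.39, adjusted p = 0.00289 and 7.86e-09). The summed level of the 20 genes was 4138 to 4212 CPM with scrambled in Jurkat, 4490 to 4622 in wild-type cells, 4588 to 4720 with shRNA-4057 and 4324 to 4363 with shRNA-4058. In HSB-2 it was 4426 to 4490 with scrambled, 5012 to 5087 in wild-type cells, 5212 to 5306 with shRNA-4057 and 5098 to 5160 with shRNA-4058. Scrambled was thus lowest for this list in both lines, while it was highest for the MCM2-7 sum in Jurkat. The part of cell cycle distribution in these values was not tested.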

How the data were processed

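RNA was measured in 16 libraries of total RNA depleted of ribosomal RNA. The authors aligned reads to GRCh37 (their methods name STRONGARM and BWA; the submitters' processing notes also list STAR, CASAVA and HTSeq 0.6.1p1) and deposited raw counts per gene for 57820 genes; the annotation release and strand setting are not given in the sources used here. Library preparation can favour some base compositions, for which an offset for GC content and length was tried. Symbols came from a gene-name table (55538 of 57820 identifiers matched), coordinates from GENCODE 44 on GRCh37 and promoters from RefSeq.

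Counts were filtered (filterByExpr), TMM-scaled and tested with edgeR 4.0.16 quasi-likelihood F-tests in R 4.3.3, two-sided, Benjamini-Hochberg adjusted over all genes tested, at an adjusted p under 0.05. Errors beside log2 fold changes are SE. Pooled comparisons used 4 hairpin and 2 scrambled libraries of a line, the line difference 12 libraries, and single contrasts all 16 as 8 groups. The scripts were tested on simulated data.

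Members and lists were chosen with earlier results of these data known. Genes shown by library were, per line, the 6 largest pooled changes with 1 sign in all 4 contrasts, the 3 largest hairpin and 3 largest control differences, the 5 largest line differences and the 3 highest and 3 lowest levels per kilobase; from other lists, the 3 highest and 3 lowest called changes. RFC2 and CDC6 in HSB-2, ORC1 and further members were named by role. Alternatives were DESeq2 1.42.0, its size factors, other count filters, a GC and length offset, other controls or libraries, a replicate block and leaving out each library.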

Additional observations from a re-analysis of the deposited data

Results flagged for a closer look

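The pooled effect of the USP7 hairpins differed between the lines for 20 of the 45 genes by the edgeR test of the difference itself, adjusted over all genes tested. By the same test, 20.6% of all genes had a higher effect in HSB-2 and 17.1% a lower one. Values are log2 differences, HSB-2 effect minus Jurkat effect. They were higher in HSB-2 for CDT1 (1.39), RRM2 (0.84), TYMS (0.69), RFC2 (0.66), RFC5 (0.55), ORC1 (0.55), RPA2 (0.54), MCM2 (0.43), RPA1 (0.41), POLD1 (0.39), PCNA (0.38), LIG1 (0.37), RRM1 (0.35), FANCI (0.32) and TIMELESS (0.28). They were lower in HSB-2 for ATR (-0.95), BRCA2 (-0.91), BLM (-0.48), BRCA1 (-0.38) and FANCA (-0.32). With the GC and length offset the differences of POLD1 and TIMELESS were -0.037 and -0.014, and those of LIG1 (0.070), MCM2 (0.068), ORC1 (0.28) and RPA1 (0.28) did not pass (adjusted p = 0.613, 0.805, 0.0942 and 0.166). With wild-type in place of scrambled PCNA was -0.024 and 7 of the 45 differences passed. With each library left out in turn, 10 of the 20 were called every time.

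In 90 groups of the 4 hairpin libraries of a line, 1 group per gene and line, 3 had a library farther from the others than Dixon's 95% critical value for 4 samples allows, and chance alone gives about 1 in 20 groups. ORC1 was highest in the second HSB-2 library with shRNA-4057 (96.8 CPM), RFC4 was lowest in the second HSB-2 library with shRNA-4058 (44.3 CPM), and TIMELESS was lowest in the first HSB-2 library with shRNA-4058 (147 CPM). These groups hold 2 hairpins each.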

How the results depend on the processing

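Called genes of the 45 were counted again under each alternative. The 16 called in Jurkat pooled became 40 with the hairpins as separate groups, 10 with scrambled and wild-type together as controls and 2 with wild-type in place of scrambled. The 16 of HSB-2 became 32 with separate hairpins. The 20 line differences became 7 with wild-type in place of scrambled. In HSB-2, the 9 scrambled against wild-type became 17 with the GC and length offset and 14 with the libraries of the line only, and the 21 between hairpins became 34 with the offset. Same-numbered libraries did not deviate together (r from -0.0457 to 0.0536 in Jurkat and -0.0281 to 0.00911 in HSB-2), and the replicate block gave 10 in Jurkat pooled, 10 in HSB-2 pooled and 15 line differences, and moved no other count by over 1.5 times. Leaving out each library in turn gave 3 to 16 in Jurkat pooled, 5 to 16 in HSB-2 pooled, 11 to 20 line differences, 5 to 10 for scrambled against wild-type and 11 to 22 between hairpins in HSB-2. Other ranges were 25 to 28 and 31 to 36 for the same comparisons in Jurkat. With shRNA-4057 they were 37 to 39 and 26 to 28 in Jurkat and 20 to 24 and 20 to 23 in HSB-2, against scrambled and wild-type. With shRNA-4058 they were 27 to 29 and 25 to 26 in Jurkat and 25 to 29 and 30 to 32 in HSB-2. Between wild-type cells they were 32 to 35.

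Over all single genes, comparisons and alternatives, 7039 values kept their direction and side of the threshold, 541 no longer passed, 241 newly passed and 31 that passed in at least 1 of the fits changed sign. A further 293 changed sign but passed in neither fit. The cause of these changes was not tested. With the offset, pooled HSB-2 values became -0.19 (LIG1), -0.23 (MCM2), -0.0040 (ORC1), -0.046 (RFC2) and -0.19 (TIMELESS). With shRNA-4057 against scrambled in HSB-2 they were -0.089 (LIG1), -0.14 (MCM2) and -0.14 (TIMELESS), and with shRNA-4058 -0.26 (LIG1), -0.30 (MCM2), -0.066 (ORC1), -0.058 (RFC2) and -0.093 (TYMS). MCM2 with shRNA-4058 against wild-type was -0.060 in HSB-2. Between hairpins in HSB-2 the values were 0.18 (CDT1), 0.16 (MCM2) and 0.090 (MCM7), and LIG1 in Jurkat was -0.11. For scrambled against wild-type in HSB-2 they were 0.042 (MCM5), 0.13 (MCM7), 0.13 (POLD1), 0.094 (POLE) and 0.016 (TIMELESS). In Jurkat with shRNA-4058, MCM5 was 0.039 against scrambled, and LIG1 and POLD1 were 0.0037 and 0.013 against wild-type. Line differences were -0.037 (POLD1) and -0.014 (TIMELESS). With wild-type in place of scrambled, Jurkat pooled values were 0.014 (GINS1) and 0.35 (RRM2), and the line difference of PCNA was -0.024. Among values that passed in neither fit, 11 of Jurkat pooled (GINS2 and PCNA among them, at 0.16 and 0.075), 4 of HSB-2 pooled and 11 line differences also changed sign with that control.

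Depth was high, and with 2 libraries a group the spread between libraries, not counting error, limits these comparisons. Of the calls against scrambled, 35 of 41 and 22 of 31 in Jurkat and 17 of 29 and 20 of 33 in HSB-2 held with each library left out, for shRNA-4057 and shRNA-4058.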
